A study of Homo sapiens with 4 samples.

Results

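The autophagy genes described here are 38 genes, HMGB1 and 37 genes of the autophagy pathway from its initiation to the lysosome, measured in GIST-T1 cells with and without added miR-34a. They were found on the array as non-control probes whose gene name is exactly that of a member. Of the 38 genes, 37 had a probe, with 58 probes in all among the 50599 probes and 36337 gene names of the array. Each gene is represented by its probe of highest mean log2 signal over the 4 arrays. ATG9A and HMGB1 are in the set as reported miR-34a targets.

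GIST-T1 is an established line of human gastrointestinal stromal tumor cells. All cells were nucleofected with 100 pmol of a mirVana RNA, which was either a miR-34a mimic (a synthetic duplex that stands in for the natural miRNA) or the negative control mimic. Total RNA was taken after 48 h, 100 ng of it was labeled with Cy3, and there were 2 one-color arrays for each condition. The comparison asks which transcripts differ in level when miR-34a is supplied. Both conditions rest on 1 cell line and a transient transfection, and untransfected cells were not analysed here. The labels number the replicates without saying that they were separate cultures, so the p-values measure only the spread between these samples, which may be technical.

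Autophagy delivers cytoplasm and organelles to the lysosome. The ULK1 complex starts the process, a PI3-kinase complex built on BECN1 marks the membrane, and ATG9 vesicles, ATG2 lipid transfer proteins and WIPI proteins feed its growth. A pair of ubiquitin-like conjugation systems then attach ATG8 proteins (the LC3 and GABARAP families) to the membrane, where cargo receptors dock, and the closed autophagosome fuses with a lysosome. TFEB, a transcription factor, acts on many autophagy and lysosome genes through an E-box motif. Autophagy is regulated in large part through proteins, their phosphorylation and lipidation, none of which an RNA array measures. A miRNA lowers its targets by pairing with their transcripts through its seed, bases 2 to 8.

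The mature miRNA is shown first because its seed sets which letters were searched for in the probes of the members (RefSeq, GRCh38.p14 chr1:9151735-9151756, minus strand, seed in capitals).

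miR-34a-5p: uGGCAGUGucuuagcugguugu

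Nested complements of the seed were counted in the 60-base probe sequences as they are written, on that strand alone: the 6-mer ACTGCC, the 7-mer CACTGCC that holds it, and the 8-mer CACTGCCA that holds both. The 7-mer was in 220 of the 50599 probes (0.435%) and in 1 of the 58 member probes, the brightest probe of ATG4B, which holds the 8-mer as well. The 6-mer was in 659 probes (1.3%) and in 2 member probes, those of ATG4B and WIPI2. The 30-base stretches of these probes that hold the match are given with the match in capitals, since they are the seed matches that the measured sequences of the members contain. They are bases 1 to 30 of the ATG4B probe (hg19 chr2:242608040-242608099, plus strand) and bases 17 to 46 of the WIPI2 probe (hg19 chr7:5269265-5269324, plus strand).

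ATG4B: cCACTGCCAgcacccgccgtgccgcatgag

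WIPI2: tgcctctcacgACTGCCccttagtcactca

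The probe for ATG4B, a protease that processes ATG8 proteins, had log2 signals of 2.27 and 2.30 on the mimic arrays and 2.28 and 2.29 on the control arrays. These 4 values overlap, and the difference between the conditions was 0.00 with a 95% interval of -0.15 to 0.15. WIPI2, which binds the lipid made by the PI3-kinase complex, gave 3.68 and 3.78 against 3.69 and 3.71, a difference of 0.03 with an interval of -0.16 to 0.21. Both intervals lie within a 1.5-fold difference, the threshold of the study, which is 0.585 on the log2 scale. Over all tested probes that hold the 7-mer, 98 in number, the median log2 difference was -0.11 and 70.4% lay below 0. A decrease of more than 1.5-fold was seen in 8 of the 98 (8.16%). Of all 21474 probes tested, 11064 lay below 0 and 4.8% were lower by more than 1.5-fold. These matches lie within the probes alone. The remaining transcript sequence of the members was not searched here.

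All levels given here are log2 processed signals minus the 75th percentile of the array, and all differences are the mimic mean minus the control mean on that scale. They were tested with limma, and p-values were adjusted by Benjamini-Hochberg over 21474 probes, each well above background on both replicates of the mimic, of the control or of both. Of the probes, 41.8% to 45.2% were well above background on each array. The defining GIST markers KIT, ANO1, ETV1, PRKCQ and PDGFRA were well above background on all 4 arrays (5 of 5). All 5 had both mimic arrays below both control arrays, with differences of -0.70, -0.06, -0.07, -0.23 and -1.53 in that order (limma adjusted p = 0.0948 for KIT and for PDGFRA). The limma adjusted p was 0.502 for ANO1, 0.516 for ETV1 and 0.264 for PRKCQ. Of all probes tested, 30.1% had arrays apart on that side. Of 8 markers of other cell types, 3 (CD14, EPCAM and DES) were well above background on all 4 arrays and 3 on none. The differences of CD14, EPCAM and DES were 0.48, 0.41 and -0.39, and CDH5 was well above background on the control arrays alone. The part of these markers in the results was not tested. Because the RNA is from bulk cultures, fewer cells carrying a transcript and less of it per cell cannot be told apart.

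The autophagy genes differed little between the conditions. Of the 37 genes with a probe, 36 passed the filter on dim probes, and all 36 were well above background on all 4 arrays. ATG9B did not pass it, and ATG101 had no probe under that name. The differences ran from -0.60 for ATG14 to 0.46 for MAP1LC3A, with a median of 0.07, beside a median of -0.01 over all probes tested. By sign, 26 genes were higher and 10 lower with the mimic (72.2% higher), where 48.5% of all probes tested were higher.

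Lower by more than 1.5-fold was 1 of the 36 genes, ATG14, against 4.8% of all probes tested. Higher by more than 1.5-fold were 0 of the 36, against 2.11% of all probes. At an adjusted p under 0.05, limma called 0 of the 36 genes and 0 of the 21474 probes (0%), so no single member passed the test. At an unadjusted p under 0.05 there were 0 lower members, against 11.6% of all probes, and 6 higher ones, ATG13, WIPI1, MAP1LC3A, SQSTM1, OPTN and LAMP2, against 12.7%. When single arrays were left out, the count lower by more than 1.5-fold and the counts at the unadjusted p changed. The number higher at the unadjusted p was smaller each time, with fewer arrays in the fit. The count higher by more than 1.5-fold did not change. With the variance trend described next, 11 members were higher and 2 lower at that level. The share of all probes at that level was not counted for that fit, so these counts cannot be read as an excess among the members. A limma fit that lets the variance follow the signal level called 1 member, MAP1LC3A, as higher and 0 as lower, where it called 3.81% of all probes higher and 3.6% lower. The methods' t-test called 0 members after adjustment, with 1 lower and 7 higher at an unadjusted p under 0.05. For the t-test, too, the share of all probes at the unadjusted p was not counted, and the same limit holds.

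The precision of these values sets what the small differences can be read for. The 95% interval of the difference lay entirely within 1.5-fold for 33 of the 36 genes (91.7%), against 68.5% of all probes tested, and the exceptions were ATG14, MAP1LC3A and HMGB1. The median standard error was 0.0641 for the members and 0.0812 for all probes. The gap between replicates over the members had a median of 0.06 in each condition, and its largest values were 0.60 for HMGB1 in the mimic arrays and 0.58 for ATG14 in the control arrays. For 17 members both mimic arrays lay above both control arrays (47.2%, against 30.4% of all probes), for 4 members, ATG14, ATG9A, ATG4D and HMGB1, they lay below (11.1%, against 30.1%), and for 15 the arrays overlapped. For a single gene, 2 arrays against 2 allow no p below 0.333 in an exact permutation test (two-sided).

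**Figure D1:**
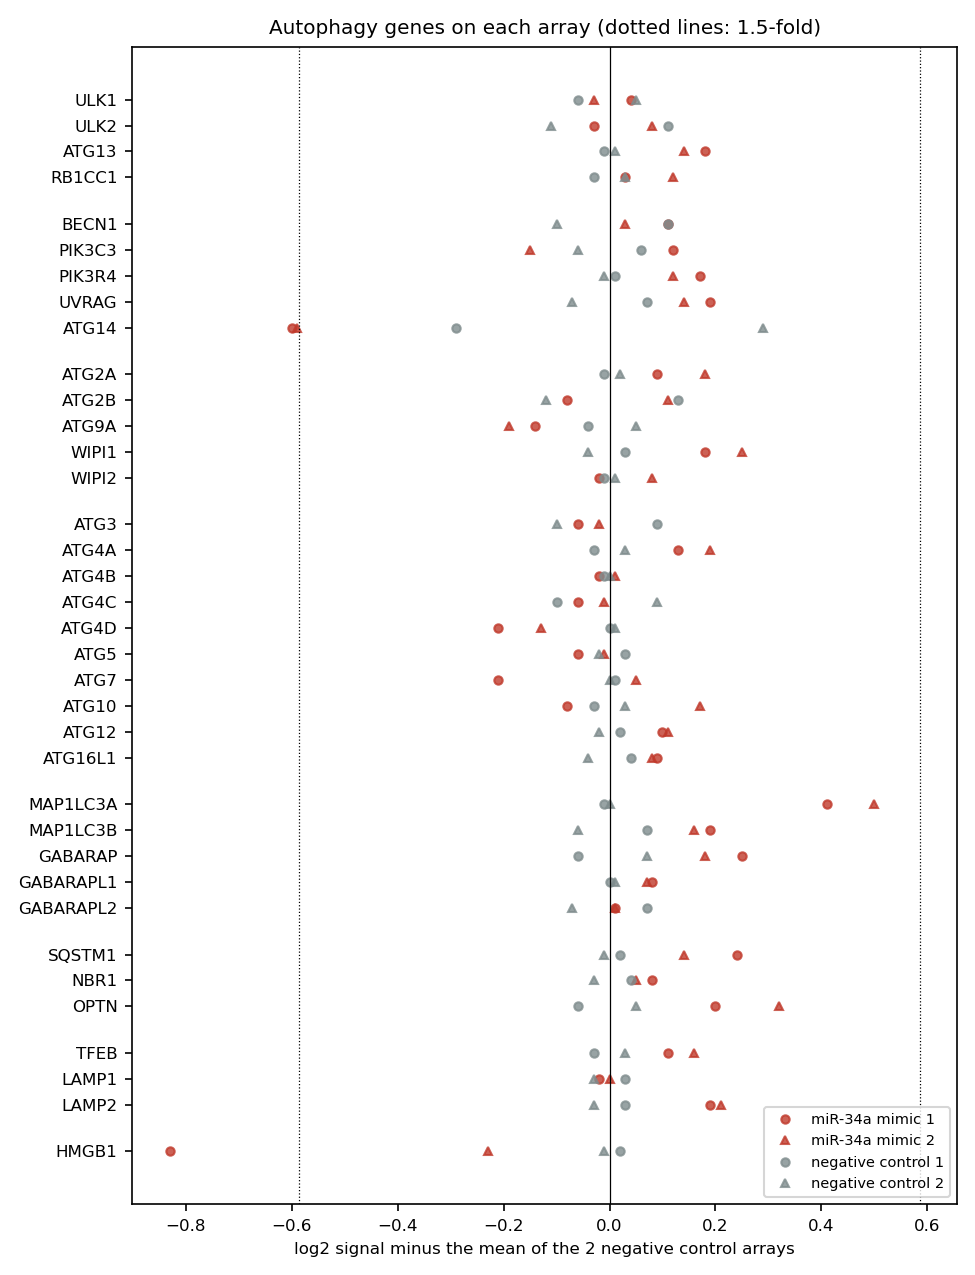
Log2 signal of each of the 36 tested autophagy genes on each of the 4 arrays, minus the mean of the 2 negative control arrays, grouped from top to bottom by role (initiation, PI3-kinase complex, membrane supply, conjugation, ATG8 proteins, cargo receptors, lysosome, HMGB1). Points are single arrays and the dotted lines mark 1.5-fold. The difference of means is within 0.2 for 30 of the 36 genes, MAP1LC3A stands to the right with both mimic arrays, and the widest gaps between replicates are those of ATG14 (control) and HMGB1 (mimic).

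Among the initiation genes, 4 of 5 were tested, their median difference was 0.05 and all 4 were at or above 0, with 1 (ATG13) whose arrays did not overlap. ULK1, the kinase that starts autophagy, gave 1.66 and 1.59 on the mimic arrays and 1.56 and 1.67 on the control arrays. Its arrays overlapped, and the difference was 0.01 with an interval of -0.19 to 0.21. ATG13, the adaptor of the kinase, gave 1.13 and 1.09 against 0.94 and 0.96. Both mimic arrays were higher, by 0.16 or 1.12-fold (SE 0.0538, limma unadjusted p = 0.0488, adjusted p = 0.203), and a second ATG13 probe gave 0.24. The scaffold RB1CC1 (0.07) and the second kinase ULK2 (0.03) overlapped between conditions. ATG101, which stabilizes ATG13, is on this array under its older symbol C12orf44 and stays outside the counts. That probe gave 4.16 and 4.23 against 4.27 and 4.22, a difference of -0.05 (limma adjusted p = 0.631).

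The PI3-kinase complex held the lowest value of the whole set. ATG14, the subunit that directs the complex to the site where autophagosomes form, gave -2.89 and -2.88 on the mimic arrays and -2.58 and -2.00 on the control arrays (hg19 chr14:55833829-55833888, minus strand). Both mimic arrays were lower, and the control arrays were 0.58 apart. The difference was -0.60, or 1.51-fold lower (SE 0.223, 95% interval -1.24 to 0.05, limma adjusted p = 0.226). The lowest signal among probes well above background was -3.30 to -3.20 on the 4 arrays. The size of the difference depended on the processing: it was -0.25 after normexp correction, -0.44 after quantile normalization, and -0.31 without control replicate 2. It was therefore within 1.5-fold under each of these 3 settings.

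The other subunits stayed closer to the control. BECN1, the core subunit, gave 2.41 and 2.33 against 2.41 and 2.20, which overlap (difference 0.07, interval -0.22 to 0.36, limma adjusted p = 0.681). PIK3C3, the lipid kinase itself, gave 1.01 and 0.74 against 0.95 and 0.83, a difference of -0.02. PIK3R4, its regulatory subunit, and UVRAG, which replaces ATG14 in a complex acting at endosomes, did not overlap and were higher by 0.14 and 0.17 (limma adjusted p = 0.232 and 0.273). The complex as a group had 3 members higher and 2 lower, with a median of 0.07.

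ATG9A, the transmembrane protein of the vesicles that seed the autophagosome, was lower on both mimic arrays, at 2.28 and 2.23 against 2.38 and 2.47 (hg19 chr2:220084776-220084835, minus strand). The conditions did not overlap, but the distance was short. Its difference was -0.17, or 1.12-fold lower (SE 0.0637, interval -0.35 to 0.02, limma adjusted p = 0.235). A second ATG9A probe gave 0.27 and 0.25 against 0.32 and 0.33, also without overlap, with a difference of -0.06 (limma adjusted p = 0.492). Over the alternative settings the value of ATG9A ran from -0.21 to -0.11, so that no setting placed it past 1.5-fold. Neither ATG9A probe holds the 6-mer seed match.

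The remaining membrane supply genes gave 4 values at or above 0. WIPI1, a lipid-binding partner of WIPI2, gave 2.17 and 2.24 against 2.02 and 1.95, without overlap, and a difference of 0.22 or 1.16-fold (limma unadjusted p = 0.0308, adjusted p = 0.171). The lipid transfer proteins ATG2A and ATG2B gave 0.13 and 0.01, and a second ATG2A probe went the other way, at -0.11. ATG9B, the paralog of ATG9A, was well above background on mimic replicate 1 alone. Its arrays read -1.85 and -2.95 against -3.31 and -5.00, so its level in the control is a bound. The mimic mean was 1.76-fold higher than the lowest signal well above background on the control arrays. That mean includes mimic replicate 2, which was not well above background, so this fold is not a strict lower limit. Its other probe was well above background on no array, and ATG9B was not tested.

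The conjugation genes differed little. Their 10 members had a median of -0.02, with 5 higher and 5 lower, and all 10 intervals lay within 1.5-fold. ATG5 and ATG7, the genes most often deleted to block autophagy, gave -0.04 and -0.08, with overlapping arrays. ATG7, the activating enzyme of both conjugation systems, read 1.48 and 1.74 against 1.70 and 1.69, so that mimic replicate 1 alone was low. ATG12 gave 2.80 and 2.81 against 2.72 and 2.68, a difference of 0.10 without overlap, and its partner ATG16L1 gave 0.08, with a second probe at -0.04. The conjugating enzymes ATG3 and ATG10 overlapped, at -0.04 and 0.05.

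The 4 ATG4 proteases, which trim ATG8 proteins before conjugation and release them afterwards, differed in sign. ATG4D was lower on both mimic arrays, at 0.18 and 0.26 against 0.39 and 0.40, a difference of -0.17 (limma unadjusted p = 0.051, adjusted p = 0.208). ATG4A was higher on both, at 1.61 and 1.67 against 1.45 and 1.51, a difference of 0.16 (limma adjusted p = 0.233). ATG4B and ATG4C gave 0.00 and -0.03 with overlapping arrays.

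**Figure D2:**
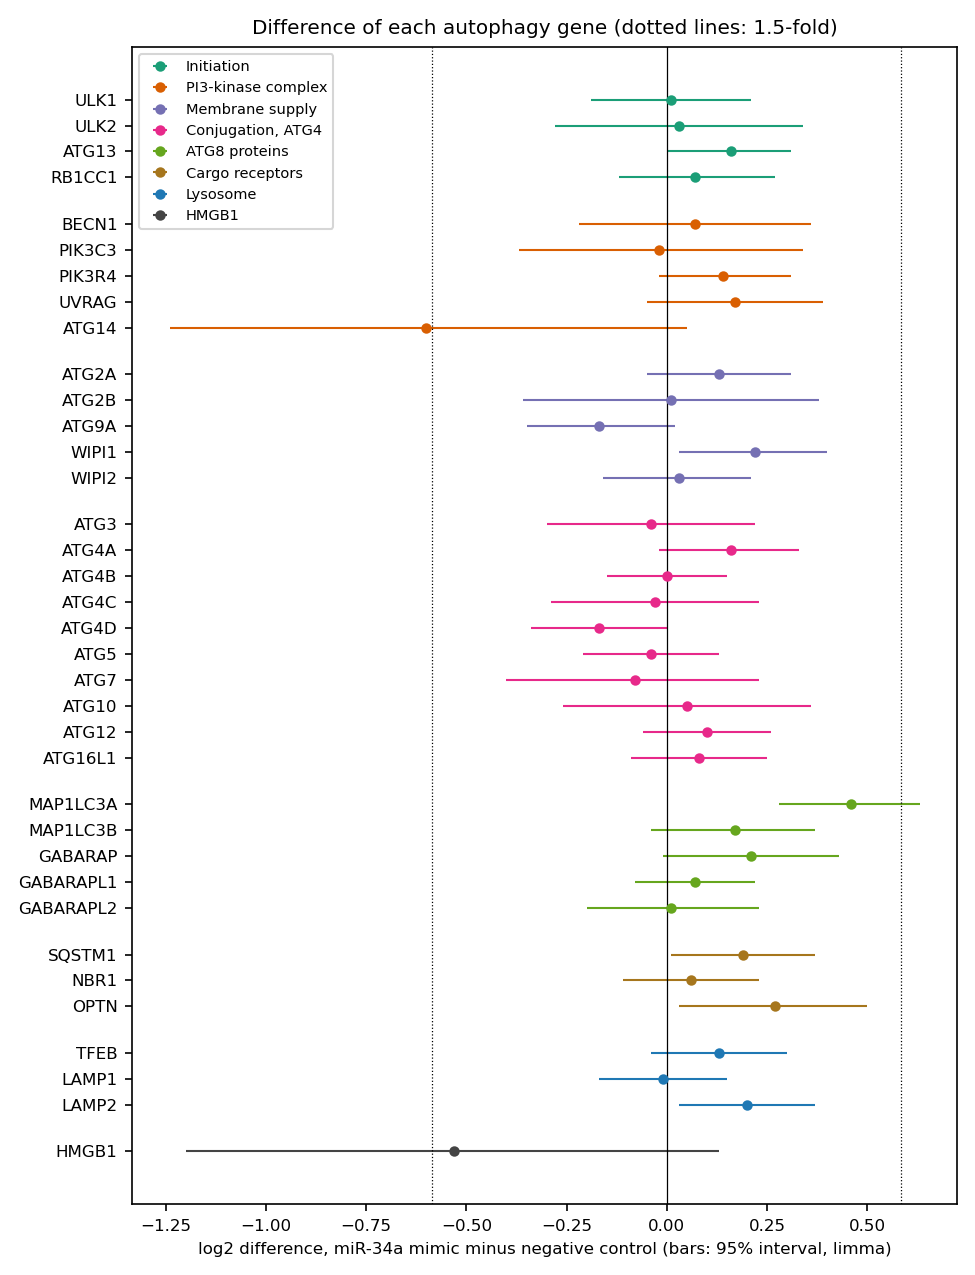
Log2 difference (mimic minus control) for the 36 tested autophagy genes (point) with its 95% interval from limma (bar), colored by role. The dotted lines mark 1.5-fold. The intervals of 33 genes lie between those lines, and those of ATG14, MAP1LC3A and HMGB1 cross one of them.

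All 5 ATG8 genes had differences above 0, with a median of 0.17, and 4 of them had both mimic arrays above both control arrays. Over all probes tested, 48.5% were above 0 and 30.4% had arrays apart on that side. MAP1LC3A, which encodes one of the LC3 proteins that are conjugated to the membrane, had the largest positive value of the set (hg19 chr20:33147644-33147703, plus strand). It read 1.38 and 1.47 on the mimic arrays and 0.96 and 0.97 on the control arrays. The conditions were well apart relative to the gaps between replicates of 0.09 and 0.02, and the difference was 0.46 or 1.37-fold higher (SE 0.0613, interval 0.28 to 0.63). Its limma unadjusted p was 0.00265 and its adjusted p was 0.0954, which misses the threshold of 0.05. With a variance trend the adjusted p was 0.0228 and after normexp correction 0.0389, and over the alternative settings it ran from 0.0228 to 0.357. The difference itself stayed between 0.40 and 0.50.

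MAP1LC3B, the LC3 gene whose protein is the usual marker of autophagosomes, gave 2.96 and 2.93 against 2.84 and 2.71, a difference of 0.17 (limma adjusted p = 0.266). The annotation of this probe also names MAP1LC3B2, a near copy, but a second probe that names MAP1LC3B alone gave 0.19. GABARAP read 6.21 and 6.14 against 5.90 and 6.03 and was higher by 0.21 or 1.16-fold (limma adjusted p = 0.216). GABARAPL1 was higher by 0.07 on a probe that also names GABARAPL3 and by 0.14 on one that does not. GABARAPL2 overlapped between conditions, with a difference of 0.01.

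The cargo receptors, which tie ubiquitinated cargo to ATG8 proteins, all had both mimic arrays above both control arrays (3 of 3), with a median of 0.19. Over all probes tested, 30.4% had arrays apart on that side. SQSTM1, whose protein is itself degraded by autophagy, read 6.24 and 6.14 against 6.02 and 5.99, a difference of 0.19 or 1.14-fold (limma unadjusted p = 0.0463, adjusted p = 0.199). OPTN, a receptor for damaged mitochondria and bacteria, read 0.29 and 0.41 against 0.03 and 0.14. Its difference was 0.27 or 1.2-fold (SE 0.0797, limma unadjusted p = 0.0342, adjusted p = 0.178), the second largest among the positive values of the tested members. NBR1, a receptor related to SQSTM1, gave 0.06 (limma adjusted p = 0.554).

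At the lysosome, TFEB read 4.17 and 4.22 against 4.03 and 4.09 and was higher by 0.13 (limma adjusted p = 0.283), with 0.07 on its second probe. LAMP1, a major glycoprotein of the lysosomal membrane, read 6.53 and 6.55 against 6.58 and 6.52, a difference of -0.01. Its arrays overlapped, and the interval of -0.17 to 0.15 lies within 1.5-fold. LAMP2, the related glycoprotein, read 3.13 and 3.15 against 2.97 and 2.91, higher by 0.20 or 1.15-fold (limma unadjusted p = 0.0299, adjusted p = 0.169).

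LAMP2 makes transcripts that differ in their last exon, and its 3 probes did not give the same sign. The brightest probe is annotated to all 3 of the LAMP2 accessions on the array. A probe annotated to NM_013995 alone gave 0.62 and 0.61 against 0.38 and 0.57, a difference of 0.14. The probe whose first accession is NM_002294 gave -1.90 and -1.85 against -1.75 and -1.85, a difference of -0.08 (limma adjusted p = 0.481). Whether the probes differ from each other was not tested.

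HMGB1, a chromatin protein that outside the nucleus binds BECN1, was the second lowest member (hg19 chr13:31037459-31037696, minus strand). It read 4.61 and 5.21 on the mimic arrays and 5.46 and 5.43 on the control arrays. Both mimic arrays were lower, but they were 0.60 apart, more than the difference between the conditions. That difference was -0.53, or 1.45-fold lower (SE 0.229, interval -1.20 to 0.13, limma unadjusted p = 0.0884, adjusted p = 0.265). Without mimic replicate 1 it was -0.23, and without mimic replicate 2 it was -0.83, past 1.5-fold. The probe of HMGB1 holds no 6-mer seed match.

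Of the 36 genes, 13 had further probes that passed the filter, 15 probes in all. The sign was that of the brightest probe for 10 of the 15, the median distance between the probes was 0.07, and the largest was 0.28, in LAMP2. Where the brightest probe and another lay on different sides of 0, as in ATG2A, ATG7, ATG16L1 and LAMP2, neither probe was past 1.5-fold.

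**Figure D3:**
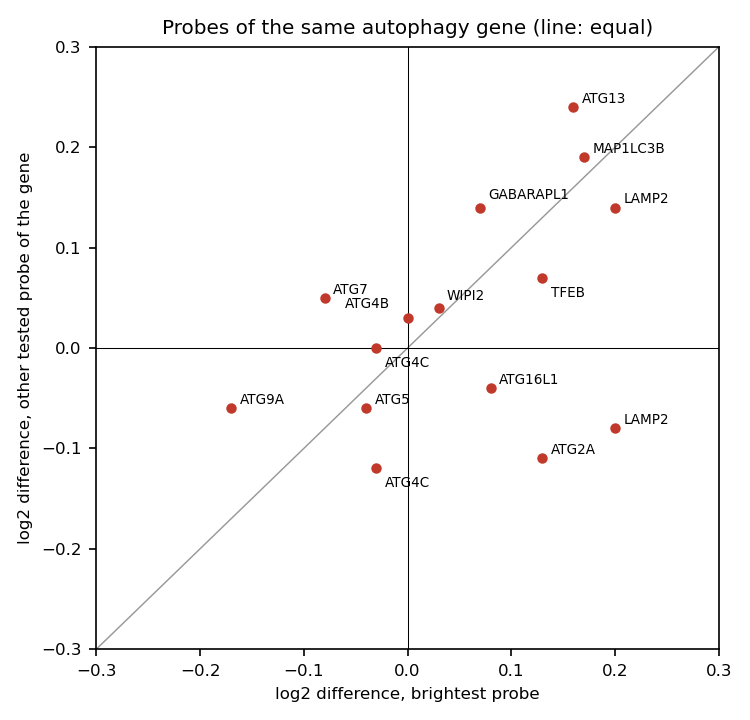
Log2 difference of the brightest probe of an autophagy gene (horizontal axis) against that of another tested probe of the same gene (vertical axis), for 15 probes of 13 genes. The line marks equal values. A LAMP2 probe, at -0.08 against 0.20, and the ATG2A probe, at -0.11 against 0.13, lie farthest below it.

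The wider pathway was described with 47 other autophagy genes, of which 45 had a probe and 42 were tested. Of these, 32 were higher and 10 lower, with a median of 0.09. Both mimic arrays were above both control arrays for 23 and below for 3, and limma called 0 at an adjusted p under 0.05, with 9 higher and 1 lower at an unadjusted p under 0.05. With the variance trend 3 were called higher (DRAM1, PINK1 and VPS16) and 1 lower (CALCOCO2). Over all probes tested, 30.4% had arrays apart on the higher side and 30.1% on the lower, 12.7% and 11.6% passed the unadjusted p, and 3.81% and 3.6% were called with the trend.

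CALCOCO2, a cargo receptor for bacteria and mitochondria, was the lowest of them and the only one past 1.5-fold. It read -0.82 and -0.69 on the mimic arrays and -0.08 and -0.03 on the control arrays. The difference was -0.70 or 1.63-fold lower (SE 0.0731, limma adjusted p = 0.0948, or 0.024 with the variance trend), and it was -0.41 after normexp correction. Its sign is the opposite of that of SQSTM1, OPTN and NBR1, the receptors among the members. SEC62 and TP53INP2, the next lowest at -0.30 and -0.15, overlapped between conditions.

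The 3 highest of the other autophagy genes were DRAM1, TP53INP1 and PINK1. DRAM1, a lysosomal membrane protein induced by p53, read 1.71 and 1.78 against 1.33 and 1.26, a difference of 0.45 (limma adjusted p = 0.0954, or 0.0222 with the variance trend). TP53INP1, a p53-induced protein that binds ATG8 proteins, read 0.65 and 0.58 against 0.17 and 0.28, a difference of 0.39 (limma adjusted p = 0.111), and another probe of it gave 0.82 with overlapping arrays. PINK1, the kinase that marks damaged mitochondria, read 3.09 and 3.05 against 2.71 and 2.68, a difference of 0.38 (limma adjusted p = 0.0964, or 0.0176 with the variance trend). The conditions did not overlap for any of the 3 on these probes.

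Of 36 lysosome genes, 35 were tested, 29 were higher and 6 lower, and the median was 0.12. Both mimic arrays were above both control arrays for 23 of them and below for 4, against 30.4% and 30.1% of all probes tested. Past 1.5-fold were 0 of the 35, and limma called 0 at an adjusted p under 0.05, with 10 higher and 2 lower at an unadjusted p under 0.05. The variance trend gave 7 called higher, LIPA and NPC2 among them, and 2 lower (CTSB and CTSL1). The shares of all probes tested were again 12.7% higher and 11.6% lower at the unadjusted p, and 3.81% and 3.6% with the trend.

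The cathepsins B and L were the lowest of the 6 lower lysosome genes. CTSB, a lysosomal cysteine protease, read 1.80 and 1.83 against 2.41 and 2.39, a difference of -0.58 (SE 0.0533, limma unadjusted p = 0.000697, adjusted p = 0.0948, or 0.0102 with the variance trend). This lies at the edge of 1.5-fold: it was -0.59, just past it, after quantile normalization and -0.5 after normexp correction. CTSL, another of these proteases and named CTSL1 on the array, read 7.10 and 7.09 against 7.47 and 7.46, a difference of -0.37 (limma adjusted p = 0.0954, or 0.0141 with the variance trend). Another CTSL1 probe gave 0.02 with overlapping arrays. NEU1, a sialidase, was lower by 0.17 (difference -0.17, without overlap).

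On the higher side, NPC2, which binds cholesterol inside the lysosome, gave 4.77 and 4.84 against 4.42 and 4.38, a difference of 0.40 (limma adjusted p = 0.0967, or 0.0157 with the variance trend). LIPA, the lysosomal acid lipase, gave 2.19 and 2.26 against 1.85 and 1.86, a difference of 0.37 (limma adjusted p = 0.0999, or 0.0234 with the variance trend). The highest value of the list, 0.58 for the transcription factor TFE3, rests on 1 array. TFE3 read 3.47 and 2.03 against 2.20 and 2.13, so that mimic replicate 1 alone was high, and its other probe gave 0.12.

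**Figure D4:**
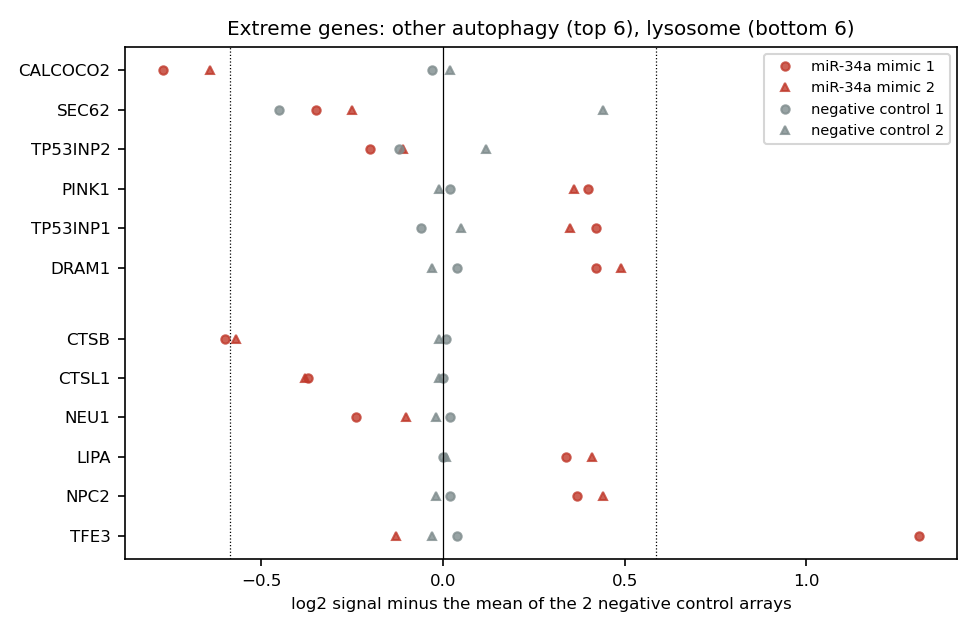
Log2 signal on each array, minus the mean of the 2 negative control arrays, for the 3 lowest and 3 highest of the other autophagy genes (top 6 rows) and of the lysosome genes (bottom 6 rows). CALCOCO2, CTSB and CTSL1 lie to the left with both mimic arrays, while SEC62 and TFE3 are spread by 1 array each.

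The members, the other autophagy genes and the lysosome genes had medians of 0.07, 0.09 and 0.12, beside -0.01 over all probes tested and -0.01 over the brightest probe of each of 16184 genes. The share with both mimic arrays above both control arrays was 47.2%, 54.8% and 65.7% in these lists, and 31.3% over the brightest probes. Whether the lists differ from other genes was not tested. All 3 medians are far below 0.585, the log2 value of 1.5-fold.

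**Figure D5:**
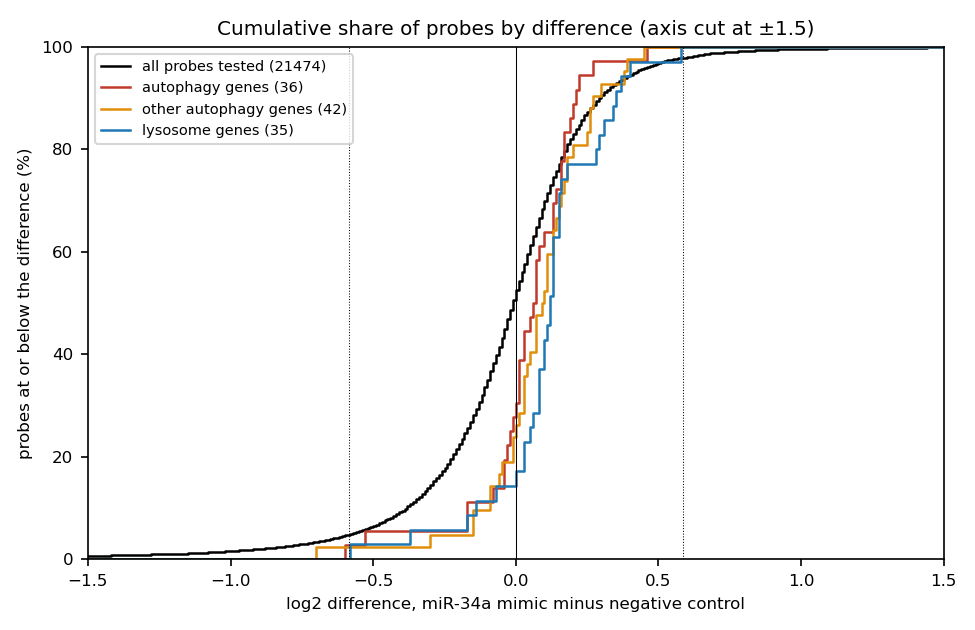
Cumulative share of probes (percent, vertical axis) at or below each log2 difference (horizontal axis), for all 21474 probes tested and for the 36 autophagy genes, 42 other autophagy genes and 35 lysosome genes. The dotted lines mark 1.5-fold and the axis ends at 1.5 on either side. The curves of the 3 lists cross the middle of the vertical axis at 0.07, 0.09 and 0.12, to the right of that of all probes at -0.01, and stay mostly between the dotted lines.

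Because TFEB is a member, the promoters of RefSeq genes (GRCh38.p14, from 250 bases before the start to 50 after it) were searched for the palindromic E-box TCACGTGA, which reads the same on both strands. The motif was chosen after the values were seen. It was found in 321 of 27305 genes with a promoter entry (1.18%) and in 2 of the 33 members with an entry (6.06%). In the further lists it was in 2 of 36 other autophagy genes (5.56%, NRBF2 and VPS11) and in 4 of 23 lysosome genes (17.4%, ATP6V0D1, CTSA, GAA and MCOLN1), counting genes with an entry. The lysosome list was drawn up as genes of which many are under TFEB control. Its share is therefore partly built in and is no finding about lysosome genes. The members are ATG3 and LAMP1, and the 30 bases around the motif (in capitals) are shown for them because they are the only members with it in this window. The ATG3 stretch is chr3:112561940-112561969 on the minus strand, where the motif begins 4 bases after the start, and the LAMP1 stretch is chr13:113297199-113297228 on the plus strand, where it begins 29 bases before the start.

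ATG3 promoter: agagtctagtgTCACGTGAggccccggtgg

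LAMP1 promoter: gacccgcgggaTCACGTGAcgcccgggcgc

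Neither of the 2 was among the members whose arrays lay apart. ATG3 read 2.92 and 2.96 against 3.07 and 2.88, and the differences of ATG3 and LAMP1 were -0.04 and -0.01. Of the 6 genes with the motif in the further lists, 5 had both mimic arrays above both control arrays, with differences of 0.25 for NRBF2, 0.15 for VPS11, 0.34 for ATP6V0D1, 0.13 for CTSA and 0.35 for GAA. MCOLN1 overlapped, at -0.07. Arrays lay apart on the higher side for 30.4% of all probes tested, 54.8% of the other autophagy genes and 65.7% of the lysosome genes. Limma called 0 of the 8 genes with the motif at an adjusted p under 0.05. At an unadjusted p under 0.05, NRBF2, ATP6V0D1 and GAA were higher, against 12.7% of all probes. In the lists that hold them, 9 of 42 other autophagy genes and 10 of 35 lysosome genes were higher at that level. With the variance trend limma called ATP6V0D1 and GAA higher, against 3.81% of all probes and 7 of the 35 lysosome genes. Whether genes with the motif differ from others was not tested. A match is a description of these letters and not of binding.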

How the data were processed

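The authors deposited spot intensities from Agilent Feature Extraction (10.7 in the submitters' processing notes, 10.7.3.1 in the file headers), with other columns that flag spots well above background, saturated or outlying, and the processed intensities of all arrays in one matrix (within 0.496% of the scanner output). These intensities were background-subtracted and detrended but not scaled between arrays, and 0 columns belonged to no mapped sample. The arrays share 1 slide and 1 scan, so neither could be a block.

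Control spots and outlier spots (293 to 424 of 58717 per array) were left out, 0 spots were saturated, and spots of a probe were averaged. The log2 signal minus the array's 75th percentile was tested in R 4.3.3 by lmFit and eBayes of limma 3.58.1, and files were read with data.table (version 1.17.8). The threshold of 1.5-fold is the study's. The number of arrays limits the precision. Positions come from the array annotation (hg19), and exons and UTRs are not given because no hg19 gene annotation was used here. A bound sets the mimic mean against the lowest signal among probes well above background, per array. The calculation was tested on simulated data.

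The rule for named genes was every member, with other probes across 0 or 1.5-fold, and the 3 lowest and 3 highest of each further list. The members and lists were chosen with earlier results of these data known. Alternatives were scaling over detected probes, normexp (offset 50), quantile normalization, no or a stricter filter on dim probes, the authors' table, a replicate block, a variance trend, the methods' t-test, the median over a gene's probes, and leaving out each array.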

Additional observations from a re-analysis of the deposited data

How the results depend on the processing

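The count of members lower by more than 1.5-fold was 1 as reported (ATG14), 0 after normexp correction and 0 after quantile normalization, and it ran from 0 to 2 when single arrays were left out: 2 without miR-34a mimic replicate 2, where HMGB1 (-0.83) joined ATG14, and 0 without negative control replicate 2. The count higher by more than 1.5-fold was 0, and 1 (ATG9B) with no filter on dim probes. Members called higher were 0, and 1 (MAP1LC3A) after normexp correction and 1 with the variance trend. Members called lower were 0 under every setting run. The cause of these changes was not tested, except that the filter itself removes ATG9B.

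The median difference of the members stayed between 0.04 and 0.10, that of the other autophagy genes between 0.08 and 0.12, and that of the lysosome genes between 0.10 and 0.14. With the replicate number as a block 0 members were called either way. In this balanced design a block leaves each difference unchanged and can move only the standard errors and p-values. The counts past 1.5-fold (1 lower and 0 higher) and the medians (0.07, 0.09 and 0.12) therefore could not change. The correlation of the deviations by replicate number was -0.0276, which cannot show whether the numbers pair the samples. The block left 0 lower and 2 higher members at an unadjusted p under 0.05. The share of all probes at that level was not counted with the block, so these counts cannot be set against the array.

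Of the 36 tested members, 23 kept their sign under all 14 alternatives, and MAP1LC3A, the only member called in any of them, was higher in each. The replicate block, the variance trend, the t-test and both changes of the filter use the same differences. Those alternatives could not change a sign. The share of all probes that kept their sign was not counted. Quantile normalization moved the share of all probes that were higher from 48.5% to 53.6%, and leaving out dim-probe filtering to 35.7%, beside 27 higher members of 36 and 27 of 37. The signal of ATG14 near background and the gaps between replicates in ATG14 and HMGB1 limit what can be read from those genes.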
